A study of Mus musculus with 12 samples.

Results

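Matricellular genes, 10 in all, were followed through the 12 libraries of a cranial irradiation study in mice. They are the CCN genes Nov (Ccn3), Ctgf (Ccn2) and Cyr61 (Ccn1), the thrombospondins Thbs1 to Thbs4, Sparc, its relative Sparcl1 (hevin), and Tnc (tenascin C). They were taken by symbol, and all 10 were found among the 23183 gene symbols listed. The set was chosen by family around Nov and Thbs4, which were selected on their hippocampal difference between IR and Con in these libraries, so every comparison of these 2 genes that uses hippocampus libraries is given as a description, without a test.

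Male C57BL/6 mice, bought at 7 weeks of age and acclimatised for 1 week, received a single cranial dose of 10 Gy of X-rays (IR) or a sham exposure (Con), and cortex and hippocampus were taken 3 months later. The 4 groups were cortex Con, cortex IR, hippocampus Con and hippocampus IR, with 3 libraries each. Values are FPKM (sequenced fragments corrected for the length of the transcript and for the size of the library), so levels can be set side by side between genes as well as between libraries. Differences were tested on log2(FPKM + 1) with limma over all genes that reached 0.5 FPKM in 3 or more of the 6 libraries compared, and a gene was called at a Benjamini-Hochberg adjusted p under 0.05. The labels do not say that libraries of a group came from separate mice, so the p-values measure the spread between these libraries. In whole tissue, fewer cells of a type and less RNA per cell cannot be told apart.

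Markers of cortical layers and of the dentate gyrus separated the tissues, and those of CA1 to CA3 neurons as a sum did not. The summed FPKM of 8 cortical layer genes was 155 to 174 in cortical and 60.7 to 73.3 in hippocampal libraries, and that of 7 dentate gyrus genes was 66.6 to 74.6 and 159 to 199 in the same order. That of 8 CA1 to CA3 genes was 208 to 235 in cortical and 219 to 276 in hippocampal libraries. Of these 8, 5 were called higher and 2 lower in the hippocampus in Con, and 4 and 2 in IR. Those lower in both treatments were Tyro3 and Mpped1, and Fibcd1 and Iyd were among those higher in both. Fibcd1 was at 2.51 ± 1.18 FPKM in cortex Con and 45.6 ± 2.75 FPKM in hippocampus Con. Iyd reached 0.5 FPKM in hippocampus libraries only. The summed level of 9 choroid plexus genes, which mark the secretory epithelium of the ventricles, stood apart in 3 libraries, at 555 in IR 2 of the cortex, 1331 in Con 2 and 1973 in IR 1 of the hippocampus, against 51.3 to 112 in the other 9. Results were therefore computed with and without these 3 libraries. The value columns of the tissues carried different name endings, so region and a possible processing run cannot be told apart.

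Matricellular proteins are secreted into the extracellular matrix, where they tune how cells bind matrix, integrins and growth factors rather than serving as scaffolding. CCN1 and CCN2 are classic targets of YAP and TEAD and of serum response factor, and Cyr61 also responds as an immediate early gene. Thrombospondins of astrocytes promote excitatory synapse formation through the calcium channel subunit alpha2delta-1 (Cacna2d1), hevin bridges neurexin and neuroligin, and SPARC opposes the synaptogenic action of hevin. Tenascin C is made by radial glia and astrocytes, and Ctgf marks the deepest cortical neurons, those of layer 6b.

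The levels of the 10 genes covered a wide range. In cortex Con the group mean of Sparcl1 was 1968 times that of Thbs1. Sparcl1 was at 640.5 ± 15.2 FPKM in cortex Con (SD, n = 3), the 42nd highest mean of all symbols there, and at 475 ± 54.4 FPKM in hippocampus Con, the 73rd. Sparc and Nov followed and overlapped in cortex Con, at 49.7 ± 2.73 and 44.6 ± 8.04 FPKM, whereas in hippocampus Con Sparc stood above Nov without overlap, at 78.8 ± 7.50 against 41.6 ± 10.8 FPKM. Ctgf was the 4th highest in cortex Con and the 7th in hippocampus Con. Below it in cortex Con, Thbs3, Cyr61, Thbs4 and Thbs2 formed a run in which each overlapped the next. In hippocampus Con, Thbs3 and Thbs4 overlapped each other above a run of Cyr61, Ctgf, Tnc and Thbs2. Thbs1 was the lowest of the 10 in every group, at 0.186 to 0.762 FPKM over the 12 libraries.

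**Figure D1:**
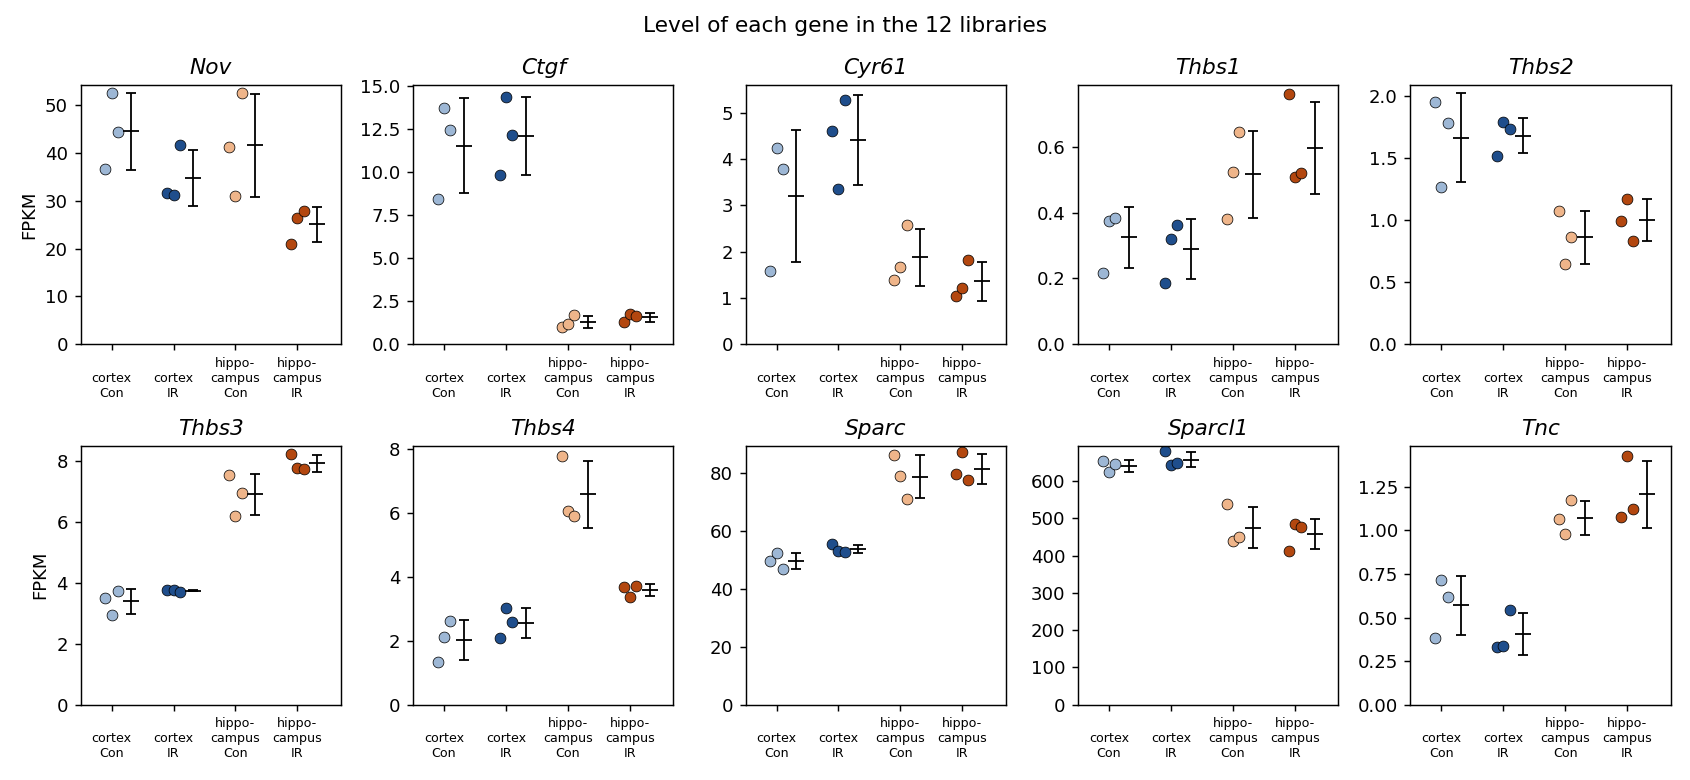
FPKM of each of the 10 genes in the 12 libraries (vertical axis, linear from 0), with points for libraries and the black mark and bar for the mean and SD of each group of 3. Ctgf is high in both cortex groups and low in both hippocampus groups, and Thbs4 of hippocampus IR lies at 3.38 to 3.73, below the 5.90 to 7.80 of hippocampus Con.

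The regional baseline divided the set. Nov and Thbs4 are left out of the counts that follow, since the hippocampus libraries in these contrasts are those on which they were selected. So are Thbs1 and Tnc, which are low and could pass the filter only with the help of the hippocampus libraries, where they are higher. Of the other 6 genes, 2 were called higher in the hippocampus in Con (Thbs3 and Sparc) and 3 lower (Ctgf, Thbs2 and Sparcl1), against 36.3% of all genes tested that were called in either direction, 19% higher and 17.3% lower. Cyr61 was not called. In the IR libraries, none of which enters the Con contrast, all 6 were called, 2 higher and 4 lower, where 46.7% of all genes tested were called, 23.7% higher and 23% lower. Each of the 6 had the same direction in both. Ctgf, Thbs3, Sparc and Sparcl1 were called in both contrasts whichever 1 library was omitted, 4 genes in all. The median log2 difference of the 6 genes was -0.47 in Con and -0.47 in IR, beside 0.02 and 0.000271 over all genes tested. The values of hippocampus and cortex did not overlap for 5 of the 6 in Con and for 6 of 6 in IR, as was the case for 49.8% and 57.3% of all genes tested.

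**Figure D2:**
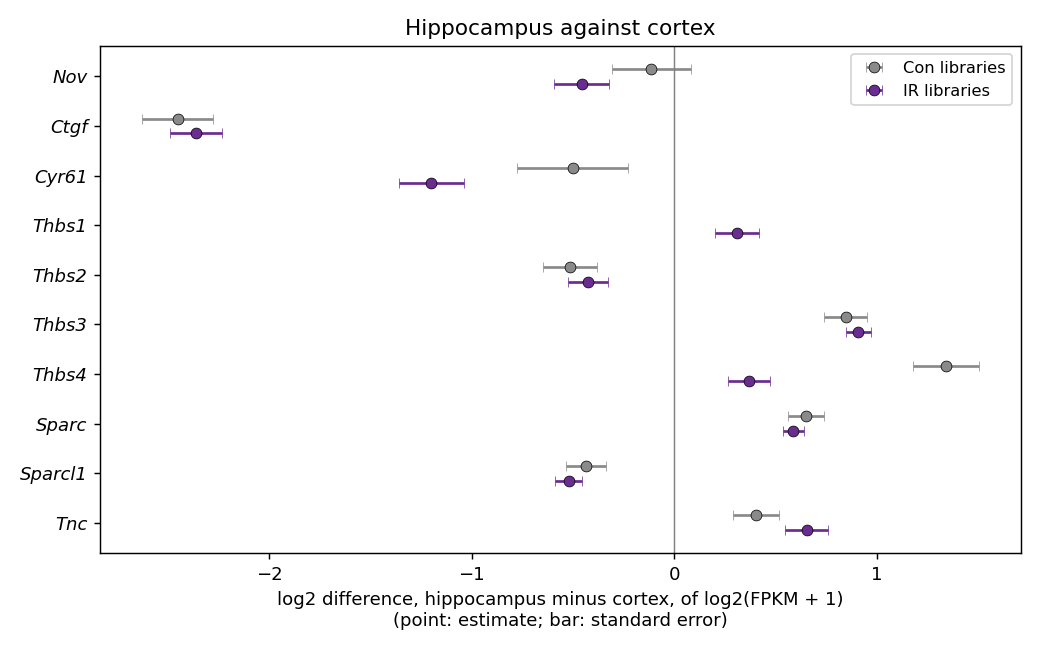
Log2 difference of log2(FPKM + 1), hippocampus minus cortex (horizontal axis), for each gene in Con and in IR libraries, with bars for the standard error. Thbs1 did not pass the filter in Con and has no point there. Ctgf lies farthest to the left, at -2.45 in Con and -2.36 in IR, and the Thbs4 points are the farthest apart among the thrombospondins, at 1.34 in Con and 0.37 in IR.

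Among the CCN genes, Ctgf (chr10:24595442-24598683 on GRCm38, plus strand) showed the widest gap of the set. In the cortex it was at 8.43, 13.8 and 12.5 FPKM in Con and at 9.86, 14.4 and 12.2 FPKM in IR. In the hippocampus it was at 0.991, 1.15 and 1.67 FPKM in Con and at 1.27, 1.75 and 1.61 FPKM in IR. Every cortex library was thus far above every hippocampus library. The mean was 9.09-fold lower in the hippocampus in Con, a log2 difference of -2.45 (standard error 0.18, adjusted p = 9.23e-06 from limma), and 7.88-fold lower in IR (-2.36, standard error 0.13, adjusted p = 1.05e-06). Cplx3 and Nxph4, which like Ctgf are used as markers of layer 6b, were also called lower in the hippocampus in both, with Con means of 7.11 ± 0.862 against 0.893 ± 0.394 FPKM and of 2.08 ± 0.802 against 0.508 ± 0.108 FPKM. In the hippocampus Nxph4 was at 0.387 to 0.593 FPKM in Con and 0.433 to 0.505 FPKM in IR. It thus passed the filter with the help of the cortex, and its calls are descriptions. The third gene of that list, Moxd1, was at 1.56 to 2.21 FPKM in cortex Con and 2.33 to 2.51 FPKM in hippocampus Con, and was not called. Exons of Ctgf overlap exons of Gm15270 on the other strand, and although the library kit keeps the strand, the strand setting of the counting is not given in the sources used here, so reads of the pair could be mixed. The same holds for Thbs1 and Gm29233, for Thbs3 and Mtx1 and for Tnc and 8030451A03Rik.

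Cyr61 (chr3:145646976-145649981, minus strand) varied widely among the cortex Con libraries. It was at 1.58, 4.25 and 3.79 FPKM in cortex Con and at 4.61, 3.37 and 5.28 FPKM in cortex IR. In the hippocampus it was at 1.39, 1.67 and 2.58 FPKM in Con and at 1.03, 1.22 and 1.82 FPKM in IR. Con 1 of the cortex fell within the range of the hippocampus, and the other 5 cortex libraries lay above all 6 hippocampus libraries. The log2 difference of hippocampus and cortex was -0.50 in Con (standard error 0.27, adjusted p = 0.194 from limma) and -1.20 in IR (standard error 0.16, adjusted p = 0.00032). Without Con 1 of the cortex the Con difference was -0.82 with an adjusted p of 0.00836. Over all fits with 1 library left out, it ranged from -0.82 to -0.31, with adjusted p from 0.00836 to 0.443. With the library number as a replicate block, its adjusted p was 0.0384, but the labels do not say that equal numbers are the same mouse.

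Beside Cyr61, the levels of 12 immediate early genes were followed, which neurons switch on quickly when active and which include Fos, Arc and Egr1. Their summed FPKM was 196, 379 and 399 in cortex Con and 632, 614 and 743 in cortex IR. In the hippocampus the sum was 135, 184 and 185 in Con and 155, 177 and 240.2 in IR. Con 1 of the cortex was the lowest cortex library in both measures. Within cortex IR, hippocampus Con and hippocampus IR, the 3 libraries stood in the same order in both measures, whereas in cortex Con the highest sum was in Con 3 and the highest Cyr61 in Con 2. Between groups the order was not always kept, since cortex Con 2 had a sum of 379 with Cyr61 at 4.25 FPKM and cortex IR 2 a sum of 614 with Cyr61 at 3.37 FPKM. In hippocampus IR against Con the 12 genes had 12 positive estimates (median 0.13, none called), whereas that of Cyr61 was -0.28. Of the 12 genes, 5 were called lower in the hippocampus in Con, Fos and Egr1 among them but not Arc, and all 12 in IR. The study ran open-field and elevated plus maze tests on its sham and irradiated mice 3 months after exposure. Its text does not give the time from these tests to tissue collection. The part of these genes, or of anything that sets them such as handling or behavioural tests, in the Cyr61 values was not tested.

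**Figure D3:**
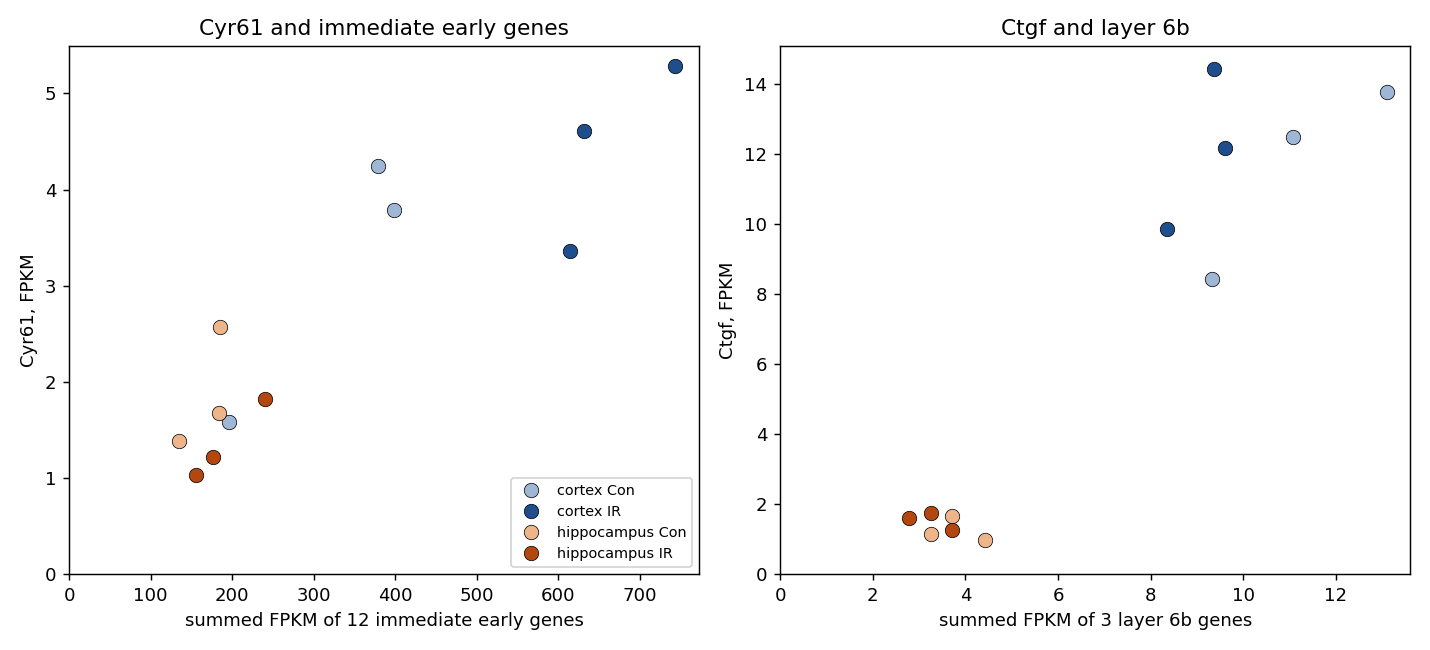
Left, Cyr61 FPKM against the summed FPKM of 12 immediate early genes; right, Ctgf FPKM against the summed FPKM of 3 layer 6b genes; each point is 1 of the 12 libraries, coloured by group. On the left Con 1 of the cortex (Cyr61 1.58, sum 196) lies among the hippocampus libraries, and on the right the cortex libraries (Ctgf 8.43 to 14.4) and the hippocampus libraries (0.991 to 1.75) form separate clouds.

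Nov (chr15:54745702-54754039, plus strand) was at 36.6, 52.7 and 44.4 FPKM in cortex Con and at 41.4, 31.0 and 52.6 FPKM in hippocampus Con, with full overlap. The log2 difference was -0.11 (standard error 0.20), and it turned to 0.013 without Con 2 of the cortex and to 0.079 without Con 2 of the hippocampus. In IR, Nov was at 31.7, 31.2 and 41.6 FPKM in the cortex and at 20.9, 26.4 and 27.9 FPKM in the hippocampus, without overlap. That difference was -0.46 (standard error 0.14), with values of -0.54 to -0.33 when 1 library was left out. Both are descriptions, since the hippocampus libraries are those on which Nov was selected.

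The thrombospondins did not share a regional direction. Thbs3 and Thbs4, whose products assemble as pentamers, had higher means in the hippocampus. Of the genes whose products assemble as trimers, Thbs2 was lower there, and Thbs1 had a higher mean. Thbs3 (chr3:89215180-89226837, plus strand) was at 3.49, 2.95 and 3.74 FPKM in cortex Con and at 7.54, 6.20 and 6.96 FPKM in hippocampus Con. The IR libraries had 3.77, 3.75 and 3.71 FPKM in the cortex and at 8.23, 7.78 and 7.74 FPKM in the hippocampus. The regions did not overlap, and the hippocampal mean was 2.03 times the cortical mean in Con and 2.11 times in IR. The log2 differences were 0.85 (standard error 0.10, adjusted p = 0.000228 from limma) and 0.91 (standard error 0.06, adjusted p = 4e-06). Thbs3 lies within Mtx1, a gene of the mitochondrial outer membrane on the other strand that shares exonic positions with it. Mtx1 was at 14.2 ± 1.75 FPKM in cortex Con and 12.7 ± 0.925 FPKM in hippocampus Con, with a log2 difference of -0.15 (adjusted p = 0.266 from limma).

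Thbs4 (chr13:92751590-92794818, minus strand) had the widest regional gap among the thrombospondins in Con and a smaller one in IR. It was at 1.35, 2.12 and 2.61 FPKM in cortex Con and at 7.80, 6.09 and 5.90 FPKM in hippocampus Con. In IR it was at 2.10, 3.04 and 2.58 FPKM in the cortex and at 3.68, 3.38 and 3.73 FPKM in the hippocampus. Each hippocampus library stood above each cortex library of its treatment. The hippocampal mean was 3.25 times the cortical mean in Con, with 1.34 as the log2 difference (standard error 0.16). For the IR libraries the ratio was 1.40, a log2 difference of 0.37 (standard error 0.10). As for Nov, these values are descriptions, since high Con and low IR values in the hippocampus were what selected the gene.

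Thbs2 (chr17:14665500-14694235, minus strand) was at 1.95, 1.27 and 1.78 FPKM in cortex Con and at 1.07, 0.648 and 0.865 FPKM in hippocampus Con. The IR values were 1.52, 1.79 and 1.73 FPKM in the cortex and at 0.994, 1.17 and 0.832 FPKM in the hippocampus. It was the one thrombospondin lower in the hippocampus, again without overlap in either treatment, with a mean 1.93-fold lower in Con and 1.68-fold lower in IR. The log2 difference was -0.52 in Con (standard error 0.13, adjusted p = 0.0148 from limma) and -0.43 in IR (standard error 0.10, adjusted p = 0.00653). The Con call was lost without Con 1 of the cortex (adjusted p = 0.0662), Con 3 of the cortex (0.0577) or Con 2 of the hippocampus (0.0554). Thbs1 (chr2:118111876-118127133, plus strand), known as an activator of latent TGF-beta, was at 0.217 to 0.384 FPKM in cortex Con, 0.186 to 0.364 FPKM in cortex IR, 0.382 to 0.646 FPKM in hippocampus Con and 0.510 to 0.762 FPKM in hippocampus IR. The regions overlapped by a small margin in Con and not in IR. No cortex IR library reached 0.5 FPKM, so in IR the gene passed the filter only through the hippocampus, and its log2 difference of 0.31 (standard error 0.11) is given as a description. In the fit without a filter, which does not depend on this, its adjusted p was 0.0283 in IR from limma. In Con that fit gave a log2 difference of 0.19 and an adjusted p of 0.154, so Thbs1 was not called there. With each library left out, the Con adjusted p was 0.0815 to 0.399. The IR adjusted p was over the threshold without IR 1 (0.0964) or IR 2 (0.0619) of the cortex or IR 1 of the hippocampus (0.0591), and without the choroid plexus libraries (0.0977).

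The upstream sequences of Thbs2, Thbs3 and Thbs4 are shown because these genes share a family and differ in regional direction, and that of Cyr61 because it is known as an immediate early gene and a TEAD target. Each is the 250 bases before the RefSeq start site on GRCm38.p6, read 5′ to 3′ on the strand of the gene. Capitals mark the motif TATAAA, the TEAD core motif GGAATG, the GC box motif GGGCGG and the box named CCAAT, or the reverse complement of any of them where the match is on the other strand. In Cyr61 the TATAAA and a GGGCGG adjoin, and in Thbs4 a pair of GGAATG matches share 1 base.
Cyr61 is at chr3:145649986-145650235 on the minus strand, Thbs2 at chr17:14694263-14694512 on the minus strand, Thbs3 at chr3:89214930-89215179 on the plus strand and Thbs4 at chr13:92794819-92795068 on the minus strand.
Cyr61: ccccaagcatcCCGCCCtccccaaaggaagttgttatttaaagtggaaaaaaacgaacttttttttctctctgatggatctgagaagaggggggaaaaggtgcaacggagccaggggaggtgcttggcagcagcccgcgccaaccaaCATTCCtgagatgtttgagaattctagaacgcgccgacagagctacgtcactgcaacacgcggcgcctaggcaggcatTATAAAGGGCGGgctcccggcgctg
Thbs2: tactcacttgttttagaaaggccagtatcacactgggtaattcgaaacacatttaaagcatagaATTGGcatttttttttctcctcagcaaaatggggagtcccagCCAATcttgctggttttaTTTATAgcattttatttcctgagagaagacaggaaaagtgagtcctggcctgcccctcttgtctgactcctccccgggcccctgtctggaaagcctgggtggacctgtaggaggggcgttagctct
Thbs3: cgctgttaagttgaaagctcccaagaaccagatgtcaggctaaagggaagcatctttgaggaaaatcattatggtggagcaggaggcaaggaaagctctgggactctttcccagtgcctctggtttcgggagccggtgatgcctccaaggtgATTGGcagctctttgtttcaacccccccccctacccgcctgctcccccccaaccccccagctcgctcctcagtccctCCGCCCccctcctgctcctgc
Thbs4: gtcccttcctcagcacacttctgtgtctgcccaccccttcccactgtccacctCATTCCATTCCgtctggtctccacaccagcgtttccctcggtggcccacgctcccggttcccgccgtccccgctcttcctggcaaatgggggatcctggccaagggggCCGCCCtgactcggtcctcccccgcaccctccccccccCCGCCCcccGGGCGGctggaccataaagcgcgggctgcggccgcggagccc

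The 3 thrombospondin windows differed in base composition. That of Thbs4 was 70.8% G and C with 19 CG pairs, that of Thbs3 58.8% with 6, and that of Thbs2 46.8% with 3, beside medians of 52.4% and 6 over all 32851 windows of this length. The Cyr61 window was 54.8% G and C with 15 CG pairs and had TATAAA at positions -25 to -20 from the start site, a motif that 12.4% of all windows held somewhere. GGAATG, found in 12.6% of all windows, was matched in Cyr61 at -103 to -98 and in Thbs4 at -197 to -192 and -192 to -187. Thbs4 held 3 matches of GGGCGG, Cyr61 2 and Thbs3 1, and 32.7% of all windows held at least 1. In Thbs2 the letters of TATAAA were matched on the other strand, at -126 to -121. CCAAT, present in 33.8% of windows, was matched at 2 positions in Thbs2 and 1 in Thbs3. TGANTCA and the CArG box, held by 6.75% and 1.47% of windows, were not matched in these 4. A match is a run of letters and was not tested as a binding site.

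Sparc and Sparcl1, whose products act against each other at synapses, had opposite regional directions. Sparc (chr11:55394500-55423183, minus strand) was at 49.7, 52.4 and 46.9 FPKM in cortex Con and at 86.2, 78.9 and 71.2 FPKM in hippocampus Con. The IR libraries were at 55.5, 53.2 and 52.9 FPKM in the cortex and at 79.6, 87.5 and 77.7 FPKM in the hippocampus. Every hippocampus library was above every cortex library. The log2 difference was 0.65 in Con (standard error 0.09, adjusted p = 0.000418 from limma) and 0.59 in IR (standard error 0.05, adjusted p = 2.5e-05).

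Sparcl1 (chr5:104079111-104113733, minus strand) was at 653, 624 and 645 FPKM in cortex Con and at 538, 439 and 449 FPKM in hippocampus Con. The IR values were 682, 645 and 648 FPKM in the cortex and at 413, 486 and 478 FPKM in the hippocampus. Here every cortex library was above every hippocampus library, and the log2 difference was -0.44 in Con (standard error 0.10, adjusted p = 0.00729 from limma) and -0.52 in IR (standard error 0.07, adjusted p = 0.000188). Both genes are strongly expressed by astrocytes, and the summed level of 10 astrocyte markers ranged from 866 to 971 FPKM over the cortex libraries and from 953 to 1102 FPKM over the hippocampus libraries. Of these 10, 4 were called higher and 2 lower in the hippocampus in Con, Gfap being higher at 161 ± 45.3 against 54.4 ± 16.6 FPKM and Aldh1l1 lower at 14.7 ± 0.897 against 22.0 ± 0.310 FPKM. The part of astrocyte content in either difference was not tested.

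Tnc (chr4:63959785-64047015, minus strand) was low in both regions and higher in the hippocampus. It was at 0.384, 0.714 and 0.615 FPKM in cortex Con and at 1.07, 0.977 and 1.17 FPKM in hippocampus Con. In IR it was at 0.333, 0.336 and 0.544 FPKM in the cortex and at 1.07, 1.43 and 1.12 FPKM in the hippocampus, again without overlap. The log2 difference was 0.40 in Con (standard error 0.11) and 0.65 in IR (standard error 0.11). In the cortex 2 of 3 Con and 1 of 3 IR libraries reached 0.5 FPKM, so the gene passed the filter with the help of the hippocampus, and these values are descriptions. In the fit without a filter, which does not depend on this, its adjusted p-values were 0.0271 in Con and 0.00189 in IR from limma. In that fit the Con value was over the threshold without Con 1 (0.0887) or Con 3 (0.0645) of the cortex, or Con 1 (0.0568) or Con 3 (0.0604) of the hippocampus. Since most values of Thbs1 and Tnc are near or below 1 FPKM, the pseudocount of 1 makes their log2 differences smaller than the ratios of their means, which for Tnc were 1.88 in Con and 2.99 in IR.

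Genes around the set are given by their counts, beside the 36.3% of all genes tested called in either direction in Con and the 46.7% in IR, and no test compared a list with all genes. Of 17 other matricellular genes tested in Con, 6 were higher and 3 lower in the hippocampus, and in IR 8 and 3 of 16 were. Smoc2, a SPARC family member, was higher in the hippocampus, with 3.96 ± 0.523 FPKM in cortex Con and 15.4 ± 2.19 FPKM in hippocampus Con (log2 difference 1.72, adjusted p = 4.9e-06 from limma), as was Tnxb, a tenascin, at 0.796 ± 0.0886 and 3.30 ± 0.255 FPKM. Spp1, or osteopontin, was lower in the hippocampus at 1.09 ± 0.154 against 5.45 ± 0.550 FPKM. The CCN gene Wisp1 was at 0.160 ± 0.0346 against 0.676 ± 0.120 FPKM. Wisp1 reached at most 0.199 FPKM in hippocampus Con and 0.195 FPKM in hippocampus IR, so it passed the filter only through the cortex. Its place among the 3 lower genes in Con and in IR is therefore a description.

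Of 18 receptors and partners tested, 8 were higher and 5 lower in the hippocampus in Con, and 9 and 4 in IR. Among the 5, Itga5 reached at most 0.460 FPKM in hippocampus Con. It passed the filter there only through the cortex, so its place in that count is a description. Gpc4, an astrocyte glypican that promotes synapses, was at 3.50 ± 0.158 FPKM in cortex Con and 15.5 ± 0.731 FPKM in hippocampus Con (log2 difference 1.87, adjusted p = 3.83e-07 from limma). The proteoglycan Sdc4 was also higher, at 31.1 ± 3.31 against 20.5 ± 1.39 FPKM. The integrin subunits Itgav and Itgb3, which pair to bind CCN proteins and thrombospondins, were both lower in the hippocampus, at 7.21 ± 0.361 against 13.3 ± 1.99 FPKM and 0.530 ± 0.0946 against 1.10 ± 0.0542 FPKM. Itgb3 was at 0.457 to 0.637 FPKM in hippocampus Con, so it passed the filter there with the help of the cortex. Of the other integrin subunits in Con, Itgb5 was called higher, Itga3 and Itga5 lower, and Itgb1 and Itga6 were not called. The thrombospondin receptor Cacna2d1 was at 36.0 ± 3.27 FPKM in cortex Con and 34.1 ± 2.73 FPKM in hippocampus Con (adjusted p = 0.567 from limma). In IR it was called lower in the hippocampus, at 31.8 ± 0.491 against 34.9 ± 0.409 FPKM (log2 difference -0.13, adjusted p = 0.0320).

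Of 15 tested genes listed for YAP, TEAD and SRF signalling, 7 were higher and 0 lower in the hippocampus in Con, and 6 and 0 in IR. In Con, 8 of the 15 and, in IR, 9 of the 15 were not called. The kinase Lats2, which restrains YAP, was at 5.02 ± 0.623 FPKM in cortex Con and 18.4 ± 0.622 FPKM in hippocampus Con, and Tead1 was at 1.94 ± 0.283 and 5.54 ± 0.206 FPKM. Of 15 TGF-beta genes, 7 were higher and 1 lower in Con and 6 and 3 in IR, with the ligand Tgfb2 at 2.33 ± 0.137 FPKM in cortex Con and 16.7 ± 4.34 FPKM in hippocampus Con, its co-receptor Tgfbr3 at 2.19 ± 0.424 and 5.49 ± 0.854 FPKM, and the latent TGF-beta binding protein Ltbp3 lower in the hippocampus at 6.16 ± 0.669 against 8.24 ± 0.888 FPKM.

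Irradiation was compared with sham within each tissue. In the cortex none of the 9 genes tested was called by limma, where 0.725% of all genes tested were, and 1 of the 9, Nov, had an unadjusted p under 0.05, as did 14.1% of all genes. The 9 adjusted p-values ranged from 0.339 to 0.968. In the hippocampus none of the 8 other than Nov and Thbs4 was called, where 0.0285% of all genes were, and none of the 8 had an unadjusted p under 0.05, the smallest being 0.0629. The median log2 difference was 0.08 for the 9 genes in the cortex and 0.08 for the 8 in the hippocampus, beside 0.00162 and -0.00997 over all genes tested.

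**Figure D4:**
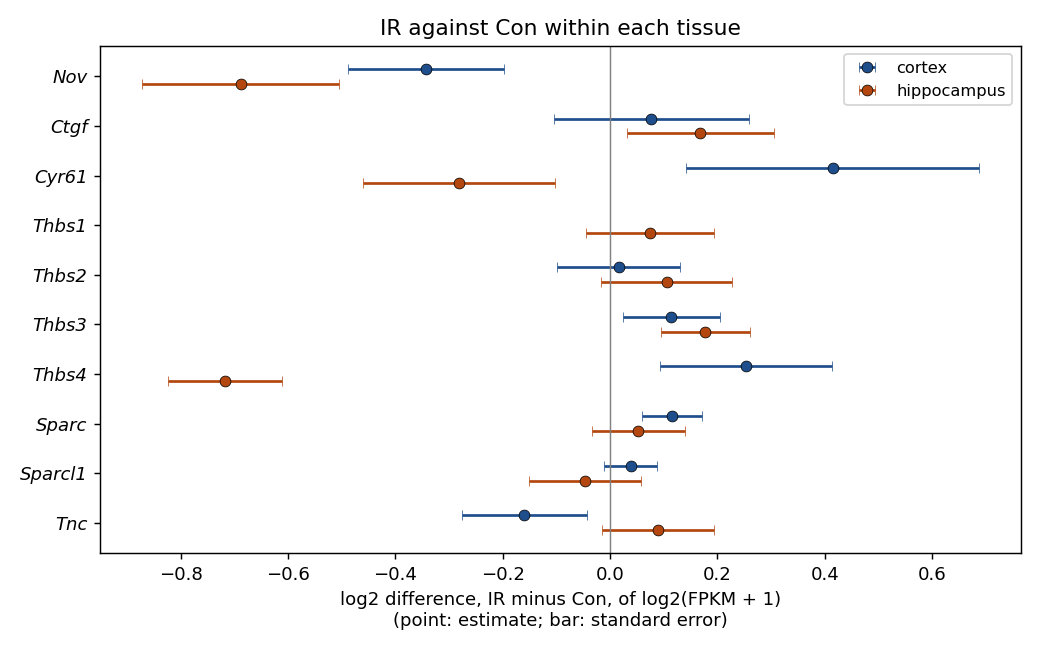
Log2 difference of log2(FPKM + 1), IR minus Con (horizontal axis), for each gene in cortex and hippocampus, with bars for the standard error; Thbs1 was not tested in the cortex. Hippocampal Nov and Thbs4, at -0.69 and -0.72, lie farthest to the left, and 7 of the 9 cortex points lie to the right of 0.

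Nov and Thbs4 were lower in all 3 IR than in all 3 Con libraries of the hippocampus. Con and IR did not overlap for 19.8% of all genes tested there, with IR lower in 9.36%. Nov was at 41.4, 31.0 and 52.6 FPKM in Con and at 20.9, 26.4 and 27.9 FPKM in IR. The highest IR value, 27.9 FPKM, was close to the lowest Con value, 31.0 FPKM in Con 2, a library that carried the choroid plexus markers. The mean was 1.66-fold lower in IR, a log2 difference of -0.69 (standard error 0.18), which ranged from -0.88 to -0.51 with each library left out and was -0.76 without the 2 choroid plexus libraries of that tissue. In the cortex Nov was also lower on average in IR, at 34.8 ± 5.88 against 44.6 ± 8.04 FPKM, but the groups overlapped and the difference of -0.34 was not called (standard error 0.15, adjusted p = 0.339 from limma).

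Thbs4 was at 7.80, 6.09 and 5.90 FPKM in hippocampus Con and at 3.68, 3.38 and 3.73 FPKM in hippocampus IR. The gap between the groups was wider than the spread within either. The mean was 1.83-fold lower in IR, a log2 difference of -0.72 (standard error 0.11), with a range of -0.78 to -0.61 when each library was left out and a value of -0.77 without the choroid plexus libraries. In the cortex the difference had the other sign and was not called, at 0.25 (standard error 0.16, adjusted p = 0.521 from limma). Hippocampal Thbs4 in IR, at 3.38 to 3.73 FPKM, was above the cortical range of 1.35 to 3.04 FPKM.

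Other markers moved beside these values in the hippocampus. The summed FPKM of 8 microglial genes was 156 to 186 in Con and 124 to 140.0 in IR, without overlap, and Csf1r, the receptor that microglia need to survive, fell from 20.5 to 24.1 FPKM in Con to 11.7 to 12.2 FPKM in IR (log2 difference -0.84, adjusted p = 0.0126 from limma). The estimate stayed between -0.90 and -0.79 in each fit with a library or the choroid plexus libraries left out, but the call was lost without Con 1 (adjusted p = 0.0571), without IR 1, IR 2 or IR 3 (0.186 to 0.230), without the choroid plexus libraries (0.407), with the replicate block (0.144) and in a fit of all 12 libraries (0.0748). The other 7 were not called. The sum of 10 endothelial genes was 86.2 to 95.5 in Con and 104 to 107 in IR, also without overlap, with 0 of 10 called. The sum of 8 genes of CA1 to CA3 neurons was 263 to 276 in Con and 219 to 270.2 in IR, overlapping, with 0 of 8 called. The part of any of these in the Nov and Thbs4 values was not tested.

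For the other 8 genes no difference between IR and Con in the hippocampus was called. Thbs3 was at 7.54, 6.20 and 6.96 FPKM in Con and at 8.23, 7.78 and 7.74 FPKM in IR, without overlap but not called (log2 difference 0.18, standard error 0.08, adjusted p = 0.379 from limma). Cyr61 had an estimate of -0.28 (standard error 0.18, adjusted p = 0.484) and Ctgf of 0.17 (standard error 0.14, adjusted p = 0.581), both with overlap. As log2 ratios of the means these were -0.47 and 0.28. The estimates of Thbs1, Thbs2, Sparc, Sparcl1 and Tnc lay between -0.05 and 0.11, with adjusted p-values of 0.708 to 0.860, and the log2 ratios of their means between -0.05 and 0.21. The standard errors of these 5 genes were 0.09 to 0.12, so the values do not show that the levels were equal.

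In the cortex, Sparc was the 1 gene of the set whose IR libraries all lay on the same side of Con, at 55.5, 53.2 and 52.9 FPKM against 49.7, 52.4 and 46.9 FPKM. IR was higher by 8.48%, a log2 difference of 0.12 (standard error 0.06, adjusted p = 0.388 from limma), and 20.3% of all genes tested there had groups without overlap. The summed endothelial markers, cells in which Sparc is also expressed, were 104 to 121 FPKM in cortex Con and 124 to 139 FPKM in cortex IR, and their part in the Sparc value was not tested. Of the 9 genes tested in the cortex, Cyr61 had the largest estimate on the log2(FPKM + 1) scale, 0.41, with the widest standard error, 0.27 (adjusted p = 0.553). Its value of 1.58 FPKM in Con 1 lay below those of all other cortex libraries, and without it the estimate was 0.10. Among the immediate early genes, 2 of 12 were called higher in cortex IR, Egr3 from 35.9 ± 1.81 to 71.6 ± 4.27 FPKM (adjusted p = 0.000185) and Fosb from 3.28 ± 0.505 to 6.31 ± 1.10 FPKM (adjusted p = 0.0303), and 0 of 12 in the hippocampus. The Fosb call was lost whichever 1 library was omitted (adjusted p of 0.0507 to 0.0891), and that of Egr3 was kept in each case. The cortical estimates of Ctgf, Thbs2, Thbs3, Sparcl1 and Tnc were between -0.16 and 0.11, with adjusted p-values of 0.586 to 0.968. That of Tnc, the -0.16, depends on the pseudocount, being -0.40 with a pseudocount of 0.1, and the log2 ratio of its means was -0.50, farther from 0 than the 0.46 of Cyr61.

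No gene of the 4 lists around the set was called between IR and Con in either tissue. These were the 16 other matricellular genes tested in each tissue, 18 cortical and 17 hippocampal receptors and partners, and 15 genes of YAP, TEAD and SRF signalling and 15 TGF-beta genes in both. Their median log2 differences were -0.04, 0.02, 0.05 and -0.02 in the cortex and 0.08, -0.02, 0.04 and -0.04 in the hippocampus, in the same order. None of 10 astrocyte, 9 mural, 8 oligodendrocyte or 10 fibroblast and meningeal genes was called in either tissue. The fibroblast and meningeal genes had 10 of 10 negative estimates in the cortex (median -0.23) and 10 of 10 positive estimates in the hippocampus (median 0.27). Such cells also express Thbs2 and Sparc, and their part in those values was not tested.

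Whether the IR against Con difference itself differed between the tissues was tested as an interaction over the 12 libraries. None of the 8 genes other than Nov and Thbs4 was called, where 0.0823% of 14577 genes were, and none of the 8 had an unadjusted p under 0.05, the smallest being 0.0750. Cyr61 had the estimate farthest from 0 among these 8, -0.70 (standard error 0.36, adjusted p = 0.524 from limma), and Tnc followed with 0.25 (standard error 0.15, adjusted p = 0.579), which was 0.56 with a pseudocount of 0.1. For Thbs4, given without a test, the hippocampal minus the cortical IR difference was -0.97 (standard error 0.21), and for Nov -0.34 (standard error 0.27). The smaller regional gap of Thbs4 in IR than in Con is the same quantity seen from the other side.

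The genes whose pattern was most like a member were found by Pearson r of log2(FPKM + 1) over the 12 libraries among 14576 other genes. These values share the libraries and the split between tissues, so they are descriptions. Ctgf was followed most closely by Grik3 (0.991), Crip2 (0.990) and Fxyd7 (0.989), and Thbs3 by Ralgps2 (0.991), Plch2 (0.990) and Raver2 (0.988). The 3 nearest to Cyr61 were Junb (0.945), Nr4a1 (0.932) and Fbxo42 (0.924), of which Junb and Nr4a1 are immediate early genes of the list above. Thbs4 was nearest to Man1a (0.948), Mageh1 (0.942) and Sdc4 (0.938). Nov had the lowest likeness to its nearest genes, Ppp3cc (0.854), Nts (0.850) and Ctxn1 (0.847).

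When each tissue mean was subtracted, so that the regional split no longer counted, Man1a was again the nearest to Thbs4 (0.890). Man1a, a mannosidase of the Golgi, was at 18.0, 15.4 and 17.6 FPKM in hippocampus Con and at 9.38, 9.94 and 11.9 FPKM in hippocampus IR, without overlap. Since Man1a was picked for its likeness to Thbs4 over these same libraries, this is a description and not a separate result. In the cortex Man1a was at 4.58 to 5.58 FPKM in Con and 5.42 to 5.72 FPKM in IR. Ppp3cc, a calcineurin subunit, was again the nearest to Nov (0.929), at 8.75, 7.81 and 9.40 FPKM in hippocampus Con and at 7.27, 7.59 and 8.22 FPKM in hippocampus IR. Evpl was the nearest to Thbs2 both with the tissue means (0.978) and without them (0.959), whereas the nearest gene of Ctgf became Cybrd1 (0.897) and that of Cyr61 Gpr161 (0.905).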

How the data were processed

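RNA sequencing libraries of mouse cortex and hippocampus were grouped by the tissue, treatment and number in their labels. According to the methods of the study, the authors trimmed paired reads of 100 bases with FASTX_Trimmer and BBMap, aligned them with TopHat, estimated FPKM with Cufflinks and applied a geometric normalization, and the deposited values are these FPKM per gene symbol. The submitters' processing notes name TopHat and mm10. The methods name poly(A) selection and a column kit whereas the labels name Trizol and total RNA. No read counts were used here, so depth in reads is unknown and no counting interval is given. The steps of the lowest values put relative depth at 1 to 1.13 within a tissue, FPKM summed to 359773 to 393447, and no pair of the 12 libraries was identical. All columns were used.

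Values were transformed to log2(FPKM + 1), a scale that understates the change of low genes, and fitted with limma 3.58.1 in R 4.3.3 with trend and robust moderation of the variances, each contrast on its own 6 libraries and the interaction on all 12, over genes that reached 0.5 FPKM in 3 or more libraries. Benjamini-Hochberg adjustment covered all genes tested: 14065 and 14043 for IR against Con in cortex and hippocampus, and 14169 and 14173 for the regions in Con and IR. An exact permutation test of 3 against 3 cannot give a p below 0.1 and was not used. The fit was tested on simulated data. Gene positions and overlaps came from GENCODE M21 on GRCm38, and upstream windows from RefSeq on GRCm38.p6, with an entry for 6 of the 10 members. Python 3.11.15 and matplotlib 3.10.9 drew the figures.

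The members, the gene lists and the tests were chosen with earlier results of these data known. The text names the 10 members, list genes called in IR against Con, up to 2 list genes per direction with the largest regional difference in Con among those called in both treatments, the 3 genes most like a member, and marker genes whose values stand beside a result. Cacna2d1 is named as the thrombospondin receptor, and the integrin subunits of the list of receptors and partners are all named. Alternatives were no filter, a filter of 1 FPKM in every library, group mean ratios in place of modelled folds, a pseudocount of 0.1, quantile normalization, median-ratio scaling, no trend or robust prior, the library number as a replicate block, all 12 libraries in a single fit, and each library left out. Leaving out the 3 libraries with high choroid plexus markers, over 3 times the median of the 12, was added after seeing the data, as were the fits without a filter and with libraries left out for Thbs1 and Tnc.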

Additional observations from a re-analysis of the deposited data

Results flagged for a closer look

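Egr3, an immediate early gene listed beside Cyr61, was called for a different response to irradiation in the tissues, a call that many settings lost. The hippocampal minus the cortical IR difference was -0.93 on the log2 scale (standard error 0.12, adjusted p = 0.0299 from limma over 14577 genes). Egr3 was at 34.2, 35.7 and 37.8 FPKM in cortex Con and at 75.1, 66.8 and 72.9 FPKM in cortex IR, while hippocampus Con and IR overlapped at 31.4 to 39.0 and 33.2 to 37.6 FPKM. It was higher in 3 of 3 cortex IR libraries than in any other library. The estimate stayed between -0.98 and -0.83 with a library left out, but its adjusted p was 0.0521 to 0.0954 without Con 1, Con 3, IR 1, IR 2 or IR 3 of the cortex or IR 1 or IR 2 of the hippocampus. It was 0.0650 with a replicate block, 0.0530 without trend and robust prior, and 0.163 without the libraries with high choroid plexus markers.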

How the results depend on the processing

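Most regional calls of the members were kept, and single libraries decided some. Of the values with a test, 337 stayed in direction and side of the threshold under alternatives other than leaving out a single library, 2 lost the call, 1 gained it and 6 turned sign. With a library left out, 268 stayed, 10 lost the call, 1 gained it and 12 turned sign. These include Thbs1 and Tnc between the regions only as fitted without a filter, combinations with left-out libraries that were added after seeing the data. Of the values given without a test, 97 and 73 kept their sign and, in the contrasts of 2 groups, moved by less than the spread between libraries, 4 moved by more, each with a pseudocount of 0.1, and 1 and 2 turned sign, in the same order. Those tested that turned sign all belonged to differences that had not been called, and the cause was not tested. In cortex IR against Con, Ctgf turned to -0.045 and Thbs2 to -0.014 without the libraries with high choroid plexus markers. Without them, Nov turned to 0.079 between the regions in Con, and Thbs3 to -0.026 in the interaction. Quantile normalization turned Sparcl1 to 0.033 in hippocampus IR against Con, and in the interaction Sparc to 0.00426 and Sparcl1 to 0.023. With each library left out, the ranges in cortex IR against Con were -0.12 to 0.21 for Ctgf and -0.097 to 0.094 for Thbs2. In the hippocampus they were -0.017 to 0.12 for Sparc and -0.10 to 0.045 for Sparcl1. For Nov between the regions in Con the range was -0.29 to 0.079. In the interaction they were -0.039 to 0.29 for Ctgf, -0.00198 to 0.14 for Thbs3, -0.13 to 0.00291 for Sparc and -0.14 to 0.00601 for Sparcl1.

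Leaving out Nov, Thbs4, Thbs1 and Tnc, 5 members were called between the regions in Con, but 3 with at least 1 FPKM in every library, a filter that fewer members pass, and 4 to 5 with each library left out. In IR 6 were, 5 with at least 1 FPKM in every library and 6 whichever library was left out. The replicate block gave 6 in Con, where Cyr61 was gained. In hippocampus IR against Con and in the interaction, 0 of the 8 other than Nov and Thbs4 were called under each alternative. Over all genes, calls in cortex IR against Con numbered 102, but 24 without a filter, 22 without trend and robust prior, 29 without the choroid plexus libraries and 16 to 78 with a library left out. In the hippocampus they numbered 4, but 2 with at least 1 FPKM in every library, 1 with the replicate block, 74 in a fit of all 12 libraries, 0 without the choroid plexus libraries and 0 to 880 with a library left out, the highest without Con 3. The interaction gave 12, but 7 without a filter, 19 with at least 1 FPKM in every library, 0 without trend and robust prior, 0 with the replicate block, 0 without the choroid plexus libraries and 0 to 480 with a library left out. The regional contrasts gave 3591 to 5531 calls in Con and 5507 to 6282 in IR with a library left out.

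The labels do not say whether equal library numbers in cortex and hippocampus are the same mouse, and the libraries were treated as unpaired. Correlations of same-numbered libraries, after the group means were removed, ran from -0.145 to 0.0819 in the cortex, from -0.357 to 0.00218 in the hippocampus, from -0.0279 to 0.152 between the regions in Con and from -0.131 to 0.128 in IR, across genes, which are not independent replicates. With a pseudocount of 0.1, 24 of the 30 nearest genes over the 12 libraries and 21 of the 30 after subtracting tissue means were shared with those given. Depth in reads is unknown, so how far counting error limits Thbs1 and Tnc cannot be said.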
